A study of Mus musculus with 333 samples.

Results

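The axon guidance ligand and receptor families are described here by 69 of the 22074 genes in a count table of single mouse brain cells. A gene belonged to the set when its symbol was that of a semaphorin (Sema), plexin (Plxn), neuropilin (Nrp1 or Nrp2), Slit, Robo, ephrin (Efna or Efnb), Eph receptor (Epha or Ephb), netrin (Ntn with a number), a netrin receptor of the Unc5 group or Dcc. The choice used symbols only and no measured value. It gave 7 class 3 semaphorins, 13 other semaphorins, 2 neuropilins, 9 plexins, 3 Slits, 4 Robos, 4 netrins, 5 netrin receptors, 5 ephrin-A and 3 ephrin-B ligands, 9 EphA and 5 EphB receptors. Single cells of wildtype mice were sorted, captured on a microfluidic chip, and their polyA RNA was amplified into 1 library per cell. Cells came from E18.5 visual cortex (71 cells), from an E18.5 set titled mThal (51 cells) whose source field instead names visual cortex, from P12 visual cortex (60), hippocampus (68) and thalamus (21), and from adult visual cortex (61 after a merge given below). The submitters labelled 70 cells Neurons (65 of E18.5 visual cortex and 5 of the mThal set), 85 Astrocyte, 41 Microglia, 34 Endothelial, 16 OPC (oligodendrocyte precursor cell), 5 Newly formed oligodendrocyte and 21 Myelinating oligodendrocyte, while 53 were unannotated and 7 carried the label purple. Neurons were labelled at E18.5 only, so in any level set beside other labels age and cell type cannot be told apart except within E18.5. The Newly formed oligodendrocytes were all of P12, 4 of visual cortex and 1 of thalamus. Endothelial cells were of adult visual cortex (23), P12 visual cortex (7) and P12 hippocampus (4). Myelinating oligodendrocytes were of adult visual cortex (6) and P12 hippocampus (15). A highest level in a label therefore also carries that label's ages and regions.

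Guidance molecules steer growing axons and migrating cells by attraction and repulsion. Secreted class 3 semaphorins bind neuropilins that signal through plexins, most other semaphorins bind plexins directly, Slits bind Robo receptors, and netrins bind Dcc (attraction) or Unc5 receptors (repulsion). Ephrins are held on the membrane and bind Eph receptor kinases on a neighbouring cell, EphA mostly with the lipid-anchored ephrin-A ligands and EphB with the transmembrane ephrin-B ligands. The same families act outside axons, among them in blood vessel growth (Robo4, Plxnd1, Ephb4) and in oligodendrocyte migration.

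Levels are given as CPM, a gene's summed reads in a group of cells scaled to counts per 1e6 gene reads. Each stage drew on 5 mice according to the series' design, but which mouse a cell came from is not labelled, so a group is 1 sample, and no comparison below has replicates or a test. Brackets give exact Poisson 95% intervals, which cover counting error only, since reads without molecular identifiers are not independent molecules. The spread between cells is given by the lowest, median and highest cell. The range of the level when each cell is left out in turn shows only how far 1 cell moves it. Such a range narrows with more cells, so ranges that do not meet are no test of a difference. A cell counts as having a read after thinning to 300000 reads, a depth every cell reached. Cells held between 374574 and 4849603 reads. A gene was measured at 10 CPM or more in a group, and a difference between groups was called at 4-fold after 1 CPM was added to each level.

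The libraries of 2 adult Microglia cells had a Pearson correlation of 0.994 across genes, against 0.638 for the next closest pair, and were counted as 1 cell, which left 332. The label's own markers, 11 or 12 in the table per label, were highest in their label for 12 of 12 measured in Astrocyte, Microglia and Endothelial, 10 of 11 in Neurons, 10 of 12 in both oligodendrocyte labels and 6 of 11 in OPC. Among 272 named cells, 19 had a marker sum of a second class reaching 25% of the median in cells so labelled, 8 of them Astrocyte, 7 OPC, 3 Myelinating oligodendrocyte and 1 Neurons. Within labels some cells stood apart. The summed own markers reached only 0.864 CPM in the lowest Microglia cell and 3.39 CPM in the lowest Endothelial cell, against label medians of 41637 and 26639 CPM, and in adult Endothelial cells summed markers of mural cells ran up to 69093 CPM and of ependymal or choroid cells up to 195869 CPM. The part of these cells in the guidance values was not tested beyond the ranges with each cell left out and the counts without the 19 cells.

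For 3 of the genes with the most restricted levels below the sequence before the start is shown, because 1 label or lineage held most of their level. Robo4 and Plxnd1 were both highest in Endothelial cells, and Plxnb3 in oligodendrocyte-lineage cells. The bases run 5′ to 3′ on the gene's strand up to the RefSeq start site (GRCm38.p6), or to the earlier GENCODE start. Capitals mark ACAAAG, the core letters of SOX factors, in Plxnb3, and the letters GGAAGT, bound by ETS factors, were searched in Robo4 and Plxnd1.
Robo4, chr9:37401722-37401896, plus strand: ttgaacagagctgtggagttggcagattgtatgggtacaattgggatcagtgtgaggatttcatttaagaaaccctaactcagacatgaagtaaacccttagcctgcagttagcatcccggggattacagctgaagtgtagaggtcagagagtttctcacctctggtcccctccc
Plxnd1, chr6:115995006-115995255, minus strand: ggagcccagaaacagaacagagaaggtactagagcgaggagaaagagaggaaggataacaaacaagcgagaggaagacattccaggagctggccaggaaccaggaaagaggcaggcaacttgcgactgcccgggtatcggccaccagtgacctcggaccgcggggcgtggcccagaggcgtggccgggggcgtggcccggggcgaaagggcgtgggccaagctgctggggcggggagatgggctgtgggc
Plxnb3, chrX:73756853-73757089, plus strand: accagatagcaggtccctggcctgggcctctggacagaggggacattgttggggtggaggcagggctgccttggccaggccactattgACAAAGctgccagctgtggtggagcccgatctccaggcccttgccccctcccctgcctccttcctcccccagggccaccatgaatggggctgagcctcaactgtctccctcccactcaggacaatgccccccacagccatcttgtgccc
On either strand GGAAGT was in neither of the 250-base windows of Robo4 and Plxnd1, and ACAAAG was in that of Plxnb3 once, with its first base at position -162 from the start. Of 27025 RefSeq promoters of that length, 19.99% held GGAAGT and 16.5% held ACAAAG on either strand. Promoters were found for 48 of the 55 measured genes of these families, and 8 held GGAAGT and 5 ACAAAG. Among the 12 genes highest in Endothelial cells 2 held GGAAGT. Only these exact letters were searched, so an absence does not extend to shorter or variant forms. A match of letters is a description of the sequence and says nothing of binding.

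Across the 7 labels, 55 of the 69 genes were measured in at least 1. Neurons held the highest level of 21 of them, where 17.3% of the 12354 genes measured had their highest level in Neurons (38.2% of the guidance genes). Endothelial cells led for 12 (all genes 15.6%), Newly formed oligodendrocytes for 8 (12%), Astrocytes for 6 (14.6%), OPCs for 5 (17.5%), Myelinating oligodendrocytes for 2 (8.35%) and Microglia for 1 (14.6%). The label with the highest level stayed the same for 38 of 55 genes whichever cell was left out, 17 of them in Neurons and 9 in Endothelial cells but only 1 of 5 in OPCs. After thinning, a cell held a read of a median of 15 guidance genes in Neurons, 11 in Newly formed oligodendrocytes, 8.5 in OPCs, 7 in Astrocytes, 6 in Endothelial cells, 4 in Microglia and 3 in Myelinating oligodendrocytes. The median number of all genes detected per thinned cell moved in part the same way, from 2938 in Neurons and 4218 in Newly formed oligodendrocytes to 807 in Myelinating oligodendrocytes. Taken as a ratio of these medians, the guidance genes per 1000 genes detected were 5.11 in Neurons. They were between 1.99 (Microglia) and 3.72 (Myelinating oligodendrocytes) elsewhere. The ratio was 5.06 in the 65 visual cortex neurons but 2.85 in the 5 titled mThal, against 3.15 in E18.5 Astrocytes.

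**Figure D1:**
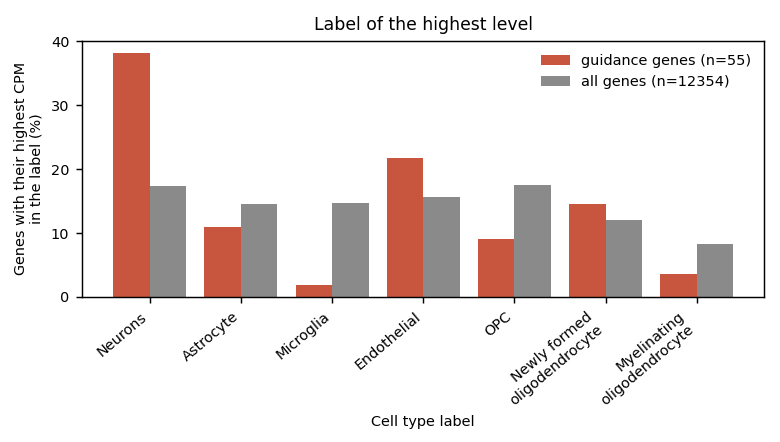
Share of genes (%, y axis) with their highest CPM in each cell type label (x axis), for the 55 measured guidance genes and all 12354 measured genes. Neurons stand at 38.2% against 17.3% and Microglia at 1.82% against 14.6%.

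**Figure D2:**
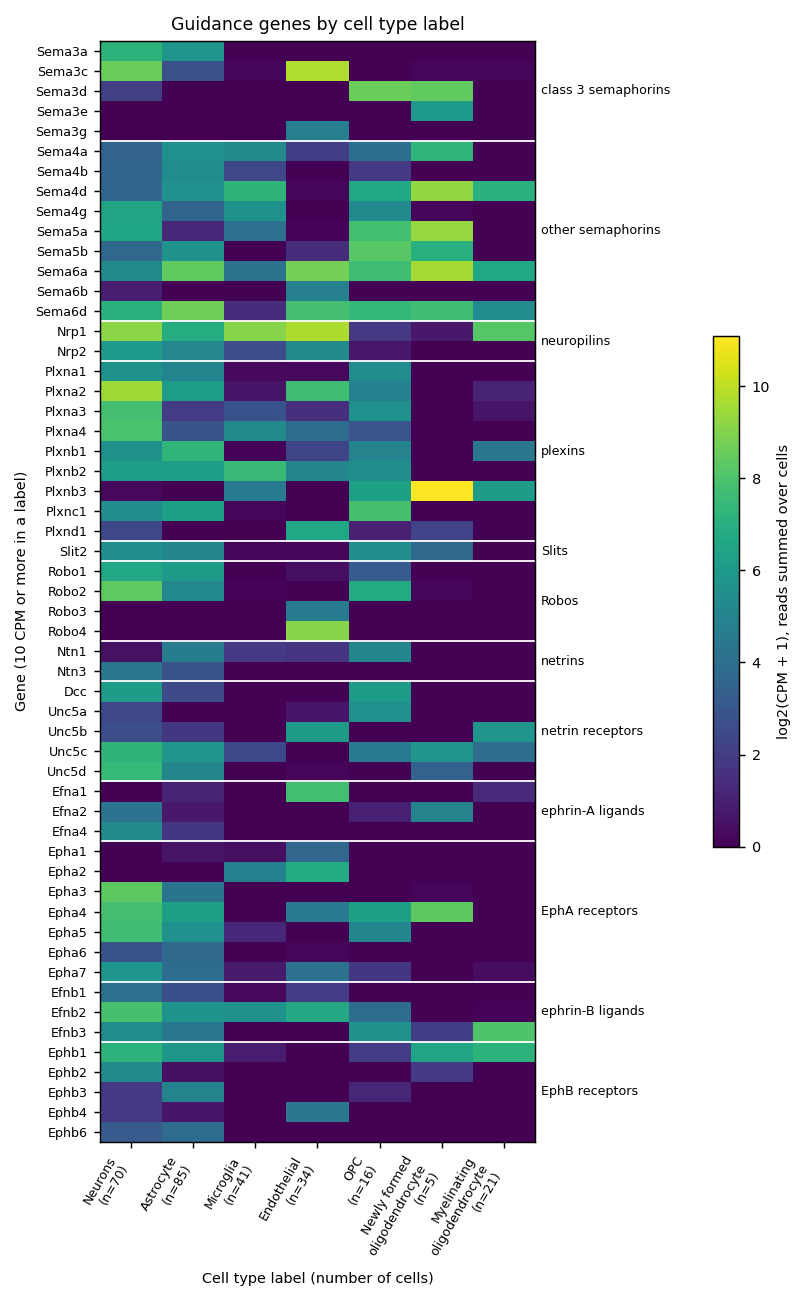
Level of the 55 measured guidance genes (rows, grouped by family) in the 7 cell type labels (columns, with the number of cells), as log2(CPM + 1) of summed reads on the colour scale. All 4 plexin-A rows are brightest in Neurons, Robo4 is bright in Endothelial alone, and Plxnb3 is brightest in the Newly formed oligodendrocyte column.

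The class 3 semaphorins, secreted ligands, were spread over different labels. Sema3c, a ligand of neuropilin and Plxnd1, was read in 42 of 70 Neurons (lowest cell 0, median 33.7, highest 2436 CPM) and in 23 of 34 Endothelial cells (lowest 0, median 340.2, highest 6615). Its summed level was 392 CPM (388 to 396) in Neurons and 874 (864 to 883) in Endothelial cells, and at most 5.76 in any other label. The 23 Endothelial cells of adult visual cortex stood at 1259.5 CPM and the 7 of P12 visual cortex at 209, below Neurons. Single Neurons and single Endothelial cells overlapped over a wide range from 0 up. Sema3a, the classic growth-cone repellent, was at 142 CPM in Neurons from 14 of 70 cells, and 1 cell held 36.8% of those reads (91.7 CPM without it). In E18.5 Astrocytes Sema3a stood at 184 CPM from 4 of 19 cells, or 18.3 without the highest. Sema3d was at 382 CPM in OPCs (7 of 16 cells) and 334 in Newly formed oligodendrocytes (4 of 5, or 105 without the highest), and at 3.31 or less in the other labels. Sema3g was at 26.8 CPM in Endothelial cells (6 of 34) and at most 0.0175 in any other label. The level of Sema3e in Newly formed oligodendrocytes, 63.6 CPM, came from 1 cell.

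Among the semaphorins of other classes, Newly formed oligodendrocytes held the highest level of 4 of 9 measured. Sema5a, which binds Plxnb3, was read in 4 of 5 of these cells at 643 CPM (lowest 0, median 739.9, highest 1436), against 211 in OPCs and 94.8 in Neurons. Sema4d, a ligand of Plxnb1 and Plxnb2, was at 624 CPM there (4 of 5 cells) and at 146 in Microglia (19 of 41). Sema6a, a transmembrane ligand of Plxna2 and Plxna4, was read in several labels, with 765 CPM in Newly formed oligodendrocytes, 438 in Endothelial cells, 332 in Astrocytes and 201 in OPCs, against 38.9 in Neurons and 18.1 in Microglia. With cells left out in turn the ranges of Newly formed oligodendrocytes (495 to 1068) and Endothelial cells (347 to 470.2) did not meet. These labels also differ in age and region. Astrocytes led for Sema6d, a ligand of Plxna1, at 401 CPM from 51 of 85 cells. A single cell at 15538 CPM held 36.3% of those reads, and the level without it was 258. Sema4b was low but frequent in Astrocytes, read in 54 of 85 cells (63.5%, Clopper-Pearson 52.4 to 73.7%) at 40.5 CPM. Sema5b was at 299.997 CPM in OPCs, of which 1 cell gave 70.2%, and Sema6b at 27.2 CPM in Endothelial cells, almost all from 1 of the 34.

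The neuropilins, the ligand-binding co-receptors, differed from each other in breadth. Nrp1 was high in 3 unlike labels, with 842 CPM in Endothelial cells (833 to 851, 21 of 34 cells), 571 in Neurons (567 to 576, 58 of 70) and 546 in Microglia (539.6 to 552, 26 of 41). The median cell stood at 213, 243 and 61.9 CPM, and the highest at 3779.8, 4086 and 4274. Leaving out cells moved Endothelial cells between 752 and 904 and Neurons between 516 and 588, while Neurons and Microglia overlapped. The median cell was higher in Neurons than in Endothelial cells. The 23 Endothelial cells of adult visual cortex stood at 530 CPM, below Neurons. The 291 CPM of Myelinating oligodendrocytes came from 1 cell, and without it the level was 0.0161. Nrp2 was at 61.3 CPM in Neurons and 37.1 in Endothelial cells.

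The plexins, the signalling receptors, fell to different labels by subfamily. All 4 plexin-A genes were highest in Neurons. Plxna2 was read in 58 of 70 Neurons (82.9%, 71.97 to 90.8%; lowest cell 0, median 382, highest 3561 CPM) at 729 CPM, against 198 in Endothelial cells and 72.1 in Astrocytes. Plxna4 was at 246 CPM in Neurons (41 of 70), Plxna3 at 216 (33) and Plxna1 at 49.2 (20), where OPCs stood at 39.4 from 1 cell. Within E18.5 Plxna1 was alike in Neurons and Astrocytes, where it stood at 50.04 CPM from 4 of 19 cells, or 19.8 without the highest. The plexin-B genes were each highest in another label, Plxnb1 in Astrocytes (154 CPM, 50 of 85), Plxnb2 in Microglia (177, 26 of 41) and Plxnb3 in Newly formed oligodendrocytes. Plxnb3 stood at 2185 CPM there. Its 5 cells stood at 419, 483, 903, 2854.5 and 4947 CPM, so every cell was positive and the values spread over more than 10-fold. Without the highest cell the level was 1094. OPCs (77.04 CPM, 6 of 16 cells) and Myelinating oligodendrocytes (67.1, 7 of 21) followed, and the level was at most 23.03 elsewhere, from 1 Microglia cell. Plxnd1, a semaphorin receptor of vessels, was at 95.4 CPM in Endothelial cells (9 of 34, median cell 0, highest 1588) and 4.24 in Neurons. The 231 CPM of Plxnc1 in OPCs came almost wholly from 1 cell, and without it the level was 0.567. Plxnc1 was read in 24 of 85 Astrocytes and 16 of 70 Neurons. In E18.5 Astrocytes it stood at 161 CPM from 8 of 19 cells, or 82.5 without the highest. Plxnb2 stood at 176 CPM in E18.5 Astrocytes from 11 of 19 cells, or 91.01 without the highest.

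Of the 4 Robo receptors, Robo1 and Robo2 were highest in Neurons and Robo3 and Robo4 in Endothelial cells. Robo2 was read in 49 of 70 Neurons at 321 CPM (lowest cell 0, median 63.9, highest 2196), and the next label, OPCs at 111, rested on 1 cell. Robo1 was at 99.6 CPM in Neurons and 65.2 in Astrocytes, and their ranges with cells left out did not meet (79.5 to 102 and 47.9 to 67.1), but within E18.5 the levels were alike, as given below. Robo4 was at 534 CPM in Endothelial cells (526 to 541; 17 of 34 cells, median 1.78, highest 5952) and at most 0.0175 in any other label. The Endothelial cells without a thinned read overlapped with the other labels at or near 0. Robo3 was at 22.4 CPM in Endothelial cells from 2 cells. Robo3 (GRCm38 chromosome 9, 37415669 to 37433246, minus strand) lies next to Robo4 (37401897 to 37415115, plus strand) with the 3′ ends facing, and whether reads were counted by strand is not given in the sources used here. Of the Slits only Slit2 was measured, with 45.7 CPM in Neurons and 44.6 in OPCs, and Slit1 and Slit3 peaked at 8.403 (Neurons) and 5.69 CPM (OPCs). In E18.5 Astrocytes Slit2 stood at 101 CPM from 3 of 19 cells, or 40.1 without the highest.

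Netrins were low. Ntn1, the main secreted netrin, was highest in OPCs at 33.4 CPM and was read in 8 of 16 cells, but 1 cell held 87.05% of the reads and Astrocytes stood at 24.2. Ntn3 was at 20.2 CPM in Neurons from 6 cells, Ntn4 peaked at 1.37, and Ntn5 had no read in any cell. Of the receptors, Unc5d (172 CPM, 28 of 70 cells), Unc5c (149, 20, or 80.98 without its highest cell) and Dcc (67.8, 20) were highest in Neurons. In E18.5 Astrocytes Unc5c stood at 137 CPM from 3 of 19 cells, or 61.95 without the highest. In visual cortex neurons alone Unc5c was lower than in all Neurons, as given below. Dcc stood at 65.3 in OPCs too, and without its highest neuron the neuronal level was 32.3. Unc5b was at 64.1 CPM in Endothelial cells and 53.6 in Myelinating oligodendrocytes, and Unc5a at 46.2 in OPCs, 85.99% of it from 1 cell.

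Of the EphA receptors 7 were measured, and 3 were highest in Neurons, 2 in Endothelial cells and 1 each in Astrocytes and Newly formed oligodendrocytes. Epha3 was read in 50 of 70 Neurons at 318 CPM (314 to 321; lowest cell 0, median 61.5, highest 4782) against 18.9 in Astrocytes. Epha5 was read in 51 Neurons at 206 CPM and Epha7 in 29 at 56.2. Epha4 was broader, with 312 CPM in Newly formed oligodendrocytes and 225 in Neurons, and without 1 of the 5 oligodendrocytes the former was 64.9. Epha2 was at 111 CPM in Endothelial cells but 1 cell held 98.9%. Among ephrin-A ligands Efna1 was at 212 CPM in Endothelial cells (9 of 34, highest cell 2549, 128 CPM without it) and at most 1.47 elsewhere, and Efna4 at 37.1 in 8 of 70 Neurons. Ephrin-B ligands were higher in Neurons and oligodendrocytes. Efnb2 was at 232 CPM in Neurons (44 of 70, median cell 41.1, highest 1676) and 102 in Endothelial cells. Efnb3 was at 265 CPM in Myelinating oligodendrocytes (13 of 21, median cell 115, highest 1394) and at 50.6 in OPCs. EphB receptors were lower. Ephb1 stood at 144 CPM in Myelinating oligodendrocytes and 142 in Neurons, and their ranges with cells left out overlapped (94.2 to 156 and 55.9 to 146). Ephb2 was at 38.8 CPM in Neurons (19 of 70) and at most 2.702 elsewhere, Ephb3 at 31.2 in Astrocytes, Ephb6 at 13.7 in Astrocytes, and Ephb4 at 19.97 in Endothelial cells.

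**Figure D3:**
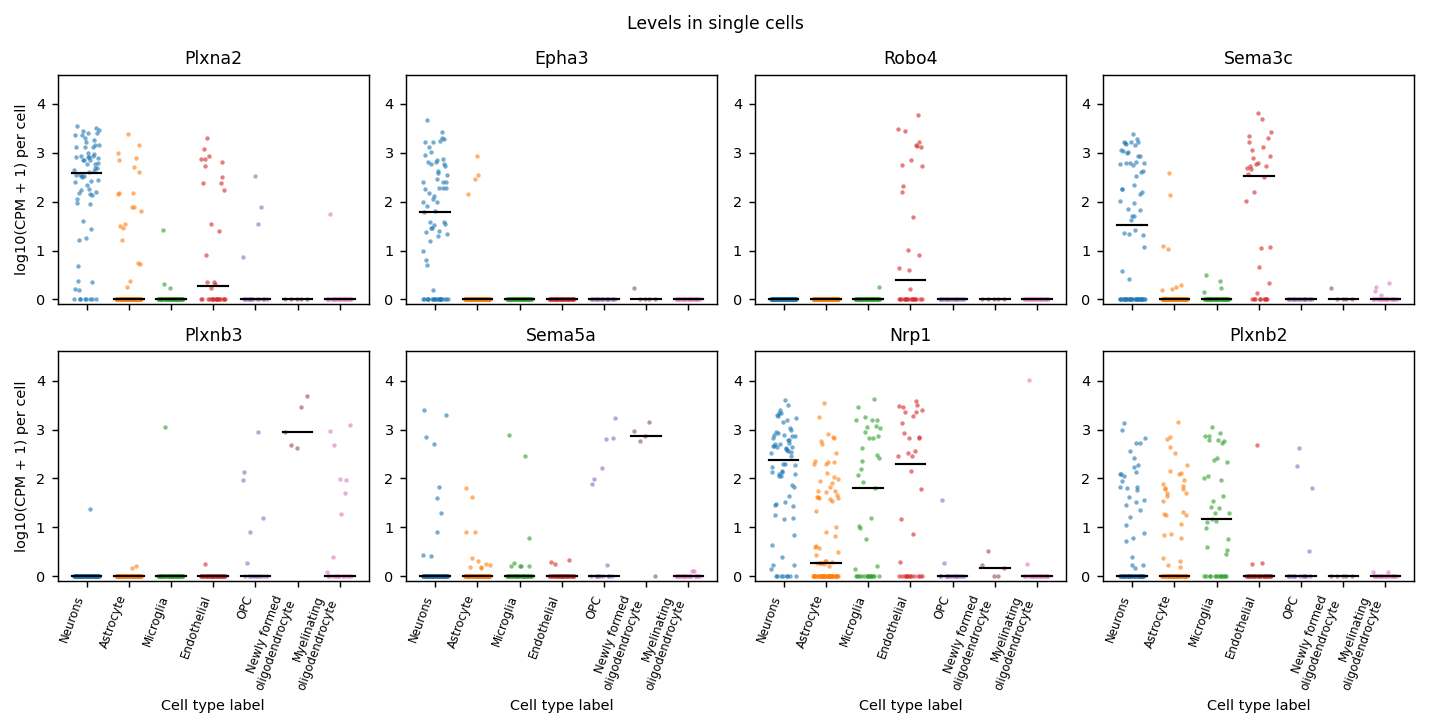
Level of 8 guidance genes in each named cell (points, log10(CPM + 1) on the y axis) by cell type label (x axis), with the median as a bar. Plxna2 and Epha3 reads fall mostly in Neurons, Robo4 reads in Endothelial cells, and all 5 Newly formed oligodendrocytes lie above 400 CPM for Plxnb3.

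Levels per length, in CPM per kilobase of annotated exons, allow genes to be compared within a label. In Neurons the highest were Nrp1 (58.4), Sema3c (54.9), Plxna2 (42.4), Epha3 (36.6) and Efnb2 (33.9), so a ligand and its co-receptor led. In Endothelial cells they were Sema3c (122), Efna1 (116), Robo4 (101) and Nrp1 (86.1). Plxnb3 led Newly formed oligodendrocytes at 337, the highest value of any guidance gene in any label, before Sema6a at 87.2, and Efnb3 led Myelinating oligodendrocytes at 83.3. Nrp1 (55.8) and Plxnb2 (22.9) led Microglia, and Sema6d (37.9) and Sema6a (37.9) led Astrocytes.

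The other 14 genes stayed below 10 CPM in every label. They were Epha8, Epha10, Sema3b, Sema3f, Sema4c, Sema4f, Sema6c, Sema7a, Slit1, Slit3, Efna3, Efna5, Ntn4 and Ntn5. Sema4c came nearest, with 9.54 CPM in Neurons, and Epha1 at 11.6 CPM in Endothelial cells lay just above the minimum.

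Neurons and Astrocytes were both labelled at E18.5, 70 and 19 cells, so they were set side by side within that age, a comparison chosen after the data had been seen. Of 42 genes measured, 18 were 4-fold higher in Neurons (all genes 23.9%) and 7 were 4-fold lower (18.8%). The median log2 ratio was 0.46 over these genes and 0.17 over all 9789 measured. Calls held whichever cell was left out for 15 higher and 4 lower. Among the 18 were the receptors Epha5 (206 and 3.48 CPM, log2 ratio 5.53), Plxna2 (729 and 24.5, 4.84), Robo2 (321 and 18.1, 4.08), Nrp1 (571 and 59.4, 3.24) and Ephb2 (38.8 and 1.203, 4.17). The ligand Sema3c (392 and 9.19, 5.27) was another. The 4 genes lower in Neurons whichever cell was left out were Ntn1 (0.393 and 67.2 CPM, -5.61), Sema6a (38.9 and 712, -4.16), Efna5 (0.573 and 24.001, -3.99) and Sema5b (11.97 and 106, -3.04). How receptors and ligands divide among the 42 was not counted, so nothing is read from the kinds named. Robo1 was alike in level (99.6 and 110.1 CPM, log2 ratio -0.14, range -0.46 to 0.30). Of the 19 astrocytes 17 were titled mThal and of the 70 neurons 65 visual cortex, so cell type and set cannot be told apart here. Summed neuron markers in these astrocytes had a median of 761 CPM, against 9027 in Neurons.

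The 5 neurons titled mThal differed from the 65 of visual cortex in most guidance genes. Of 42 measured, 25 were 4-fold lower (all genes 46%) and 9 were 4-fold higher (12%) in the mThal neurons, with a median log2 ratio of -3.70 beside -1.49 over 8706 genes. The call held whichever cell was left out for 21 of the lower and 2 of the higher genes. The 65 visual cortex neurons had a median of 2967 genes and 15 guidance genes per thinned cell, and the mThal neurons 2803 and 8. Summed neuron markers had medians of 8832 (visual cortex) and 9954 CPM (mThal), astrocyte markers of 189 and 44.7, newly formed oligodendrocyte markers of 345 and 1319, and of 7 measured factors of thalamic neurons 5 were 4-fold higher in the mThal neurons (Tcf7l2, Lhx9, Zic1, Zic4 and Foxp2) and 1, Prox1, was lower. Tcf7l2 is on both the newly formed oligodendrocyte list and the thalamic list, so these values are not separate observations. Its part in the marker sum was not tested. The source field names visual cortex for both sets, and whether the sets also differ in handling was not tested.

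Most receptors of class 3 semaphorins, Nrp1, Nrp2, Plxna2, Plxna3 and Plxna4, were low or unread in the mThal neurons. Nrp1 stood at 0.376, 0, 0, 14.3 and 0 CPM in the 5 cells, against a visual cortex lowest of 0, median of 339.9 and highest of 4086, which gave summed levels of 3.29 and 630.1 CPM (log2 ratio -7.20, range -9.11 to -6.83). All 5 mThal cells lay far under the visual cortex median and within its range. Plxna2 was read in 1 of 5 cells, at 87.7 CPM (21.9 and 802 CPM, log2 ratio -5.13), and Plxna4, Nrp2, Epha4, Epha5, Efnb2 and Sema3c had no read in any of the 5. Sema3c stood at 432 CPM in visual cortex, in 42 of 65 cells, which is 1269 times a floor of 3 reads over the mThal arm. That floor covers counting error only, not which 5 cells were captured, and sets no lower bound on the difference. Epha3 was read in 1 of 5 at 128 CPM (18.6 and 349), and Robo1 reached 1.42 CPM in 1 cell (0.114 and 109.8). Dcc stood at 17.1 and 73.01 CPM, on 1 mThal cell. Robo2 did not share this pattern, with 1028, 0, 41.2, 0 and 1310 CPM in the 5 cells and levels of 505 and 302 (log2 ratio 0.74, range -0.12 to 1.15).

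Plxna1, Ephb1, Unc5c and the ligand Sema6a were among the 9 higher in the mThal neurons, and the other 5 were read in 1 or 2 mThal cells. Plxna1 stood at 0, 279, 0, 845 and 188 CPM in the 5 cells (285 and 24.9 CPM, log2 ratio 3.47, range 2.29 to 4.48), where the visual cortex median was 0 and the highest cell 651. Ephb1 stood at 776, 3743, 0, 0.512 and 262 CPM (1209 and 32.04, 5.19, range 3.47 to 5.86). For both, 3 of 5 cells were high and the rest overlapped with visual cortex at or near 0. Unc5c was higher at 838 against 77.9 CPM (log2 ratio 3.41), but without the cell at 2990 CPM the ratio was 0.62. Sema6a was read in all 5 cells, at 345, 13.6, 132, 21.997 and 132 CPM (142 and 28.2, 2.30), and in 17 of 65 of visual cortex, and without 1 of the cells the log2 ratio was 0.93, under 4-fold.

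**Figure D4:**
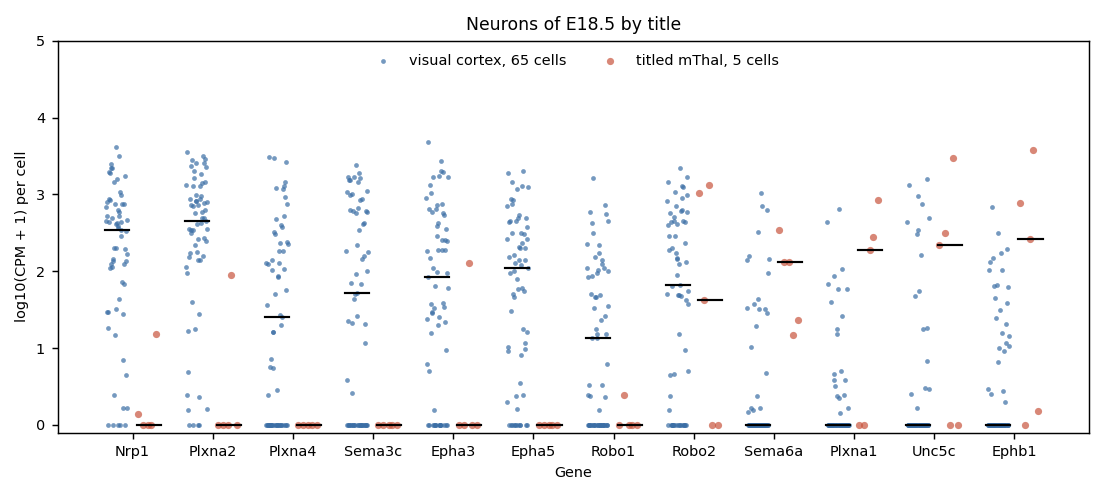
Level of 12 guidance genes (x axis) in each E18.5 neuron (points, log10(CPM + 1) on the y axis), 65 of visual cortex in blue and 5 titled mThal in red, with medians as bars. Nrp1, Plxna2, Plxna4, Sema3c, Epha3, Epha5 and Robo1 are at or near 0 in most of the 5 red cells, Sema6a is above 0 in all 5, and Plxna1, Unc5c and Ephb1 are high in 3 of 5.

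Among the 65 visual cortex neurons, 15 had a read of at least 3 of 8 listed interneuron genes, 42 had none or 1, and 8 had 2. Since the cells were split by measured genes, the values are a description. Of 40 guidance genes measured, 4 were 4-fold higher (all genes 11.6%) and 10 were lower (20.6%) in the 15 cells. Nrp2 was at 0.542 CPM in them and 91.4 in the 42, Slit2 at 1.68 and 72.2, Sema5a at 1.41 and 154, and Plxna3 at 48.4 and 311. Plxnb1 was higher, at 211 and 9.03 CPM (range of the log2 ratio 2.36 to 4.70). Plxna2, at 823 and 862, differed little, and Epha7 at 136 and 39.5 stayed under 4-fold.

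Astrocytes were labelled in every set. Plxnb1, a receptor of Sema4d, was read in 6 of 17 cells of E18.5 mThal, 9 of 16 of P12 thalamus, 11 of 19 of P12 hippocampus, 15 of 21 of P12 visual cortex and 7 of 10 of adult visual cortex, at 86.6, 133, 111, 222 and 339 CPM in that order. Ranges with cells left out overlapped between neighbouring sets, and 173 to 383 in the adult lay above 32.9 to 96.9 in E18.5 mThal. Sema4b was read in at least 7 cells of each of these sets. Sema6d stood at 750.1, 458, 201 and 281 CPM before adulthood and at 4.404 in the adult (3 of 10 cells). In E18.5 mThal 1 cell held 72.5% of the reads and in P12 thalamus 1 cell 54.5%, and without them the levels were 214 and 227. Epha5 was near 0 in E18.5 mThal (0.516 CPM) and P12 thalamus (1.07), at 74.8 in P12 hippocampus (9 of 19 cells), 15.1 in P12 visual cortex (4 of 21) and 439 in the adult, where 3 of 10 cells had a read (182 CPM without the highest). The adult astrocytes had a median of 1464.5 genes per thinned cell, against 2641 to 2963 in the other 4 sets, and the part of this in the values was not tested.

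In P12 astrocytes of thalamus (16 cells) against visual cortex (21), 26 genes were measured, of which 3 were 4-fold higher (all genes 17.2%) and 13 lower (23.8%). The median log2 ratio was -2.24 beside -0.13 over 8995 genes. The call held whichever cell was left out for 7 of the lower and for none of the higher genes. Sema4d, read in 0 of 16 and 9 of 21 cells, stood at 0.215 and 106 CPM (41.1 without the highest visual cortex cell), Ephb1 (0 and 8 cells) at 0 and 39.97, and Robo2 (0 and 5 cells) at 0 and 83.2, of which 1 cell gave 92.9% and without which the level was 6.08. Sema5b (1.45 and 41.5 CPM), Sema4g (5.05 and 38.6), Plxna1 (0 and 66.6, from 2 cells, 31.03 without the higher) and Efnb3 (0 and 14.8, from 3) were the other 4. Plxnb2 (98.1 and 11.8 CPM), Ntn1 (19.5 and 0) and Slit2 (17.6 and 0) were the 3 higher in thalamus, read in 5, 4 and 2 of the 16 thalamic cells. Summed astrocyte markers had medians of 42773 and 50020.5 CPM, and neuron markers of 289 and 202.

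Against the 17 E18.5 astrocytes titled mThal, the same 16 P12 thalamic astrocytes had 30 genes measured, 2 of them 4-fold higher (all genes 20.7%) and 17 lower (25.5%) at P12. The median log2 ratio was -2.29 beside -0.19 over 9003 genes, and 10 lower and 0 higher calls held whichever cell was left out. This comparison shares its P12 arm with the one above, and age, title and set cannot be told apart. Robo1, read in 11 of 17 cells at E18.5 and 2 of 16 at P12, stood at 121 and 0.268 CPM (log2 ratio P12 over E18.5 -6.59, range -6.75 to -6.15). Sema6a was read in 14 and 10 cells at 781 and 76.2 CPM (-3.34), Ephb1 in 6 and 0 at 102 and 0, Sema5b in 7 and 2 at 66.1 and 1.45, and Ntn1 in 10 and 4 at 74.1 and 19.5, within 4-fold. Sema3a, Epha3, Plxna1, Unc5c, Efnb2 and Robo2 were the other 6 of the 10 that held, and were read in 3 or 4 of the E18.5 cells. Sema4b, read in 7 and 12 cells at 14.9 and 97.9 CPM (log2 ratio 2.64, range 1.84 to 3.50), and Sema4a, at 14.3 and 121, were higher at P12. Summed astrocyte markers were lower at E18.5 (median 16296 against 42773 CPM), endothelial and mural markers reached 15222 and 10914 CPM in single E18.5 cells, ependymal or choroid markers 83002, and their part in these differences was not tested.

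**Figure D5:**
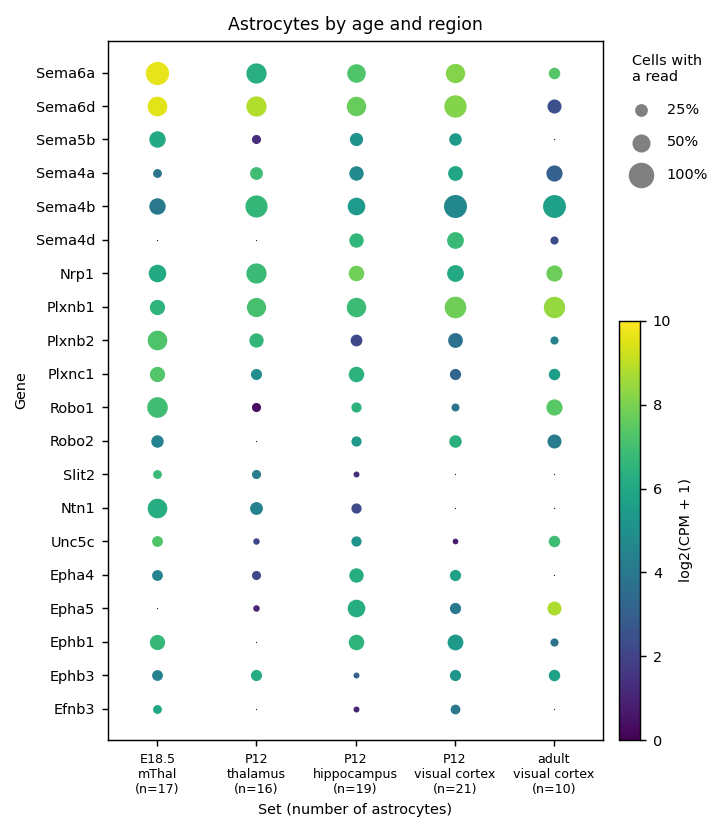
Level of 20 guidance genes (rows) in Astrocytes of 5 sets (columns, with the number of cells), as log2(CPM + 1) by colour, with the share of cells with a read by point size. Sema6a, Robo1 and Ntn1 have their largest points at E18.5, Sema4d is at or near 0 in the first 2 columns, and Plxnb1 has large points in P12 and adult visual cortex.

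Endothelial cells of adult (23) and P12 (7) visual cortex differed in the ligand Sema3c. Of 20 guidance genes measured, 4 were 4-fold higher in the adult (all genes 35%) and 4 lower (23.4%), with a median log2 ratio of -0.70 beside 0.39 over 7167 genes. Adult Sema3c was at 1259.5 against 209 CPM (17 of 23 and 4 of 7 cells, log2 ratio 2.58, range 2.11 to 3.01), and its lowest and highest adult cells were 0 and 6615 CPM against 0 and 578 at P12. Robo3 (35.5 CPM from 2 cells, and 0) was the only other call that held whichever cell was left out. Nrp1 was read in 7 of 7 P12 and 10 of 23 adult cells at 1085 and 530.3 CPM (log2 ratio adult over P12 -1.03), and Robo4 in 5 and 9 at 965 and 375 (-1.36), both within 4-fold. The median number of genes per thinned cell was 2499 at P12 and 1558 in the adult, and its part in these shares of cells was not tested. Without its highest cell the adult Robo4 level was 177. The P12 cells had mural markers summing to at most 814 CPM and ependymal or choroid markers to at most 0.616, against the adult values given above, and the part of these in the differences was not tested. The 4 P12 hippocampal cells held Nrp1 in all 4 at 1871 CPM, Robo4 in 3 at 531 and Sema6d in 4 at 1048, a ligand read in 1 of 7 P12 visual cortex cells (348) and none of the 23 adult ones (0.0405).

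In Microglia the most frequent genes were Plxnb2 and Nrp1. Microglia of P12 visual cortex had an Nrp1 read in 14 of 18 cells (794 CPM), those of P12 hippocampus in 4 of 8 (404), 3 of 3 of P12 thalamus (1115) and 2 of 2 of E18.5 mThal (669.98, or 8.48 without 1 of the cells), against 3 of 10 in the adult (8.02). The adult range with cells left out, 1.7002 to 9.57, lay far below that of P12 visual cortex, 585 to 847. Plxnb2 stood at 111 CPM in cells of P12 visual cortex (11 of 18), 82.3 in those of P12 hippocampus (7 of 8) and 259 in the adult (5 of 10). Macrophage markers were also highest in the Microglia label, for 8 of 8 listed, and their part in the Nrp1 level was not tested.

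In the oligodendrocyte lineage the 2 sets of Myelinating oligodendrocytes differ in age and region at once, which cannot be told apart. Plxnb3 was read in 5 of 6 adult visual cortex cells at 445 CPM and 2 of 15 P12 hippocampal ones at 3.85, and Unc5b in 4 of 6 at 321 and 2 of 15 at 8.88. Ranges with cells left out were 309.5 to 542 and 0.762 to 4.23 for Plxnb3. Efnb3 was nearer in level, 397 CPM (5 of 6) and 243 (8 of 15). The adult cells had more genes detected (median 1983 against 741 per thinned cell). In OPCs, Sema5b was read in 6 of 6 P12 hippocampal cells (788 CPM) and in 0 of 4 adult ones.

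Ligands and receptors known to bind were compared for 47 pairs, of which 33 had both genes measured. The ligand and the receptor had their highest level in the same label for 9 pairs, 4 in Neurons (Slit2 with Robo1 and with Robo2, Efnb1 and Efnb2 with Ephb2), 3 in Endothelial cells (Sema3c with Nrp1 and with Plxnd1, Efna1 with Epha2), 1 in Newly formed oligodendrocytes (Sema5a with Plxnb3) and 1 in OPCs (Ntn1 with Unc5a). Since 38.2% of the guidance genes were highest in Neurons and 21.8% in Endothelial cells, some pairs share a label from these shares alone, and nothing is read from the count. For Ntn1, Unc5a and Epha2, 1 cell held most of the reads, as given above. Sema3c in P12 visual cortex Endothelial cells, and Nrp1 in adult ones, lay below Neurons, as given above. Within E18.5 the summed levels of Slit2 and Robo1 were no higher in Neurons than in Astrocytes. Cells with both reads were frequent for some. Of 70 Neurons 42 had a read of Sema3c and 58 of Nrp1, and 40 had both. Of 34 Endothelial cells 23 had Sema3c, 21 Nrp1 and 13 both. In Newly formed oligodendrocytes 4 of 5 cells had both Sema5a and Plxnb3. Slit2 and Robo2 were read together in 15 of 70 Neurons (19 and 49 singly), Efnb2 and Ephb2 in 14 (44 and 19), and Sema4d and Plxnb2 in 14 of 41 Microglia (19 and 26). Deeper or richer cells hold more genes of any kind, so these counts are a description.

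Other genes of the pathway followed partly different labels. Of 27 listed co-receptors and further ligands 26 were measured, with 8 highest in Neurons, 7 in OPCs, 5 in Astrocytes, 2 in each oligodendrocyte label and 1 each in Microglia and Endothelial cells, where all genes had 17.3% in Neurons, 17.5% in OPCs and 14.6% in Astrocytes. The netrin receptor Neo1 was at 216.9 CPM in Neurons and 168 in Astrocytes, the vascular receptor Kdr at 746 in Endothelial cells and 12.9 or less elsewhere. Of 40 listed genes of signalling inside the cell 39 were measured, 10 highest in Neurons and 10 in Astrocytes, beside the same shares of all genes. Crmp1, a mediator of semaphorin signals, was at 820.4 CPM in Neurons and 43.1 in Astrocytes, and Rnd1, a GTPase that binds plexins, at 119 in Endothelial cells. The kinase Fyn was at 5616 CPM in Newly formed oligodendrocytes and 465 in OPCs. In the mThal neurons 12 of 21 measured co-receptors and ligands were 4-fold lower and 1 higher, and 12 of 33 signalling genes lower and 2 higher, with median log2 ratios of -2.15 and -1.26, where 46% of all genes were lower and 12% higher. In P12 thalamic astrocytes against visual cortex 1 of 15 co-receptors and ligands was lower and 3 higher (median log2 ratio 0.62). Of 33 signalling genes 7 were lower and 4 higher (-0.14). Over all genes 23.8% were lower and 17.2% higher.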

How the data were processed

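Single-cell RNA-seq gene counts were analysed. The authors deposited 1 table of whole-number read counts per gene and cell, 22074 genes by 333 cells, each cell 1 library and 1 GEO sample. Reads were aligned with STAR to mm10 and counted with HTSeq 0.6.0, per the submitters' processing notes, while annotation and strand setting were not given in the sources used here, so overlapping or antisense genes cannot be separated. Every column matched the cell identifier of 1 sample.

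The guidance genes, lists and comparisons were chosen with earlier results of these data known. Deposited counts were summed per label, or per set and label, and divided by the summed gene reads to give CPM. No label ties cells to mice, so no test was made. Intervals are exact Poisson (levels) and Clopper-Pearson (shares of cells), at 95%. Each cell was thinned once to 300000 reads for counts of cells with a read. Cells correlating above 0.95 were merged (1 pair), and no other filter on cells or doublets was applied. A gene was measured at 10 CPM or more in a label or arm, and called at 4-fold with 1 CPM added. An arm without reads was set against a floor of 3 reads, which covers counting error only. Every guidance gene could be named, with full values kept for those measured in a label with a read in 30% of its cells, and other genes only from the lists. The comparison of neurons with astrocytes within E18.5 was added after seeing the data. The 53 unannotated and 7 purple cells entered no comparison. Gene positions and exon lengths came from GENCODE M21 (GRCm38), and promoter sequences from RefSeq (GRCm38.p6). Alternatives were TMM and median-of-ratios scaling, other minima, folds and added values, means of per-cell CPM, shares of cells, cells of 1 set only, no merge, leaving out cells that carried other markers, and leaving out each cell. The called comparisons between sets and the step that finds the highest label were run on simulated data, with outcomes not given here. The comparison of neurons with astrocytes within E18.5 and the split by interneuron genes were not simulated. Tools were Python 3.11.15, numpy 2.4.6, pandas 2.3.3, scipy 1.17.1, matplotlib 3.10.9, and R 4.3.3 with edgeR 4.0.16 for TMM factors only.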

Additional observations from a re-analysis of the deposited data

How the results depend on the processing

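No paired analysis was possible and no test was made, because no label ties a cell to a mouse. With TMM scaling, median-of-ratios scaling, means of per-cell CPM, or the 19 cells carrying other markers left out, 17 of 17 counts of guidance genes stayed within 1.5 times, as did 7 of 7 without the merge. With a minimum of 50 CPM, 2 genes were highest in Astrocytes, 7 in Endothelial cells and 3 in OPCs, and the counts were 1 higher and 4 lower for P12 astrocytes of thalamus against visual cortex, 11 lower for P12 against E18.5 astrocytes, 2 lower for adult against P12 Endothelial cells and 4 lower for E18.5 neurons against astrocytes. With no minimum, 2 genes were highest in Microglia and 5 were higher in thalamic astrocytes. By share of cells, 2 were highest in Microglia. Within adult visual cortex 12 were highest in Astrocytes, 5 in Microglia and 5 in Myelinating oligodendrocytes, and within P12 visual cortex 9 in OPCs, where fewer labels were present. At 2-fold, 7 were higher in thalamic than visual cortex astrocytes, 4 higher at P12 than at E18.5, 8 higher and 10 lower in adult Endothelial cells, and 12 lower in E18.5 neurons than astrocytes. With 5 CPM added, 2 were lower in adult Endothelial cells. Leaving out each cell gave 1 to 2 genes highest in Microglia, 1 to 3 in Myelinating oligodendrocytes, and 1 to 3 higher in P12 than E18.5 astrocytes. The cause of these moves was not tested. TMM moved the log2 ratios of mThal against visual cortex neurons by 0.23 and median-of-ratios by 0.46. Thinning to 700000 reads left out 33 cells and bears on shares of cells only. Pooling the E18.5 sets as the source field reads was not run, since it leaves no comparison of sets. With 1 sample per group, and 5 cells in the smallest arm, spread between mice was not measured.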

Other observations

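Unannotated cells and those labelled purple stand outside every comparison, and some held guidance genes in most cells. Among the 25 unannotated cells titled mThal at E18.5, Sema6a was read in 20 at 457 CPM (median cell 331) and the netrin receptor Dcc in 17 at 553 CPM (median cell 373). Plxnb2 (274 CPM) and Unc5c (184) were read in 14 of them each, and Robo2 (195) in 13. Their summed neuron markers had a median of 2071 CPM.

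Among the 16 unannotated cells of P12 hippocampus, Plxna2 (734 CPM) and Epha4 (663) were each read in 13, and Sema3c (1065, median cell 927) and Epha7 (376) in 12. Summed neuron markers had a median of 5704 CPM there. In the 7 purple cells, whose summed ependymal or choroid markers had a median of 169943 CPM, Plxnb2 was read in 5 at 97.6 CPM, and Nrp1 in 3 at 596 CPM, or 132 without the highest cell.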
